A study of Rattus norvegicus with 6 samples.

Results

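The 10 genes described here are the simple epithelial keratin and junction genes Epcam, Cdh1, Krt7, Krt8, Krt18, Krt19, Cldn3, Cldn4, Cldn7 and Esrp1, a set that marks the cell layer lining airways, alveoli and glands. They were found by symbol among the 17833 genes listed in the deposited expression table, and all 10 were present. The table holds bulk RNA-seq of the pulmonary veins (PVs) of wild type Sprague-Dawley rats, with 3 rats given bilateral pulmonary vein banding (BPVB) at postnatal day 1 and 3 sham-operated rats whose chests were opened without constriction of the veins. Right upper lobe vein tissue was taken from both groups at postnatal day 21, and each library came from a separate rat that the study had picked at random from its group. The comparison of BPVB with sham asks how the transcripts of the vein tissue differ once the veins have been narrowed. Values are given as FPKM, counted fragments scaled by gene length and by library total, so that levels can be compared between genes.

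Simple epithelial cells hold together as a sheet through E-cadherin (Cdh1), whose extracellular part binds the same protein on the neighbouring cell, and through tight junctions, where claudins seal the space between cells. Their intermediate filaments are built from pairs of a type II keratin (Krt7 or Krt8) and a type I keratin (Krt18 or Krt19), and both partners are needed for a stable filament. Epcam is a membrane protein of epithelial cells that binds claudin-7, and Esrp1 is an RNA-binding protein that sets the epithelial splice forms of many transcripts. In lung these genes are used by alveolar and airway epithelium and, for several of the keratins, by mesothelium, whereas vein wall cells (endothelium, smooth muscle, fibroblasts and, in rodents, a sleeve of atrial-like cardiac muscle) are known for other cadherins and filaments.

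The 6 libraries gave between 23324220 and 29583436 fragments on genes, recovered from the steps of the FPKM values. Markers of the vein wall were abundant, with 8 cardiac muscle genes at a sum of 15045 to 15443 FPKM in the BPVB libraries and 20689 to 21050 FPKM in the sham libraries, 7 smooth muscle genes at 4434 to 4479 and 4626 to 4694 FPKM, and 8 endothelial genes at 1080 to 1096 and 1223 to 1233 FPKM. Alveolar type 2 genes, which are not of the vein wall, were present as well, at 562 to 608 and 67.6 to 70.4 FPKM. The 10 epithelial genes were scarce beside these. They summed to between 20.4 and 23.9 FPKM in the BPVB libraries, on 1012 to 1108 fragments, and to between 4.81 and 6.43 FPKM in the sham libraries, on 207 to 261 fragments. The median of all listed genes was 4.26 FPKM in the BPVB group and 4.09 FPKM in the sham group, so 7 of the 10 genes in the BPVB group and all 10 in the sham group had a mean below the middle of the table.

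Of the 10 genes, 9 had a mean of at least 0.1 FPKM over the 6 libraries and were tested (limma on log2(FPKM + 0.5), two-sided, Benjamini-Hochberg adjustment over 15150 genes). In the BPVB group 6 were higher at an adjusted p under 0.05, namely Epcam, Cdh1, Krt7, Krt8, Krt19 and Cldn3, where 17.2% of all tested genes were called higher, and 0 were lower, where 14.3% of all tested genes were. Krt18, Cldn7 and Esrp1 did not pass. Cldn3 and Esrp1 reached the filter only through the BPVB libraries, so only a rise could be found in them, and Cldn4 was under it. Of the genes called higher, 5 (Epcam, Krt7, Cdh1, Cldn3 and Krt8) were also DEGs by the study's threshold of 1 on the log2 fold change, beside 2.24% of all tested genes that were DEGs in the higher direction. Krt8 and Cldn3 lay just above that threshold and Krt19 just below it at 0.99. Without BPVB replicate 2 the DEGs numbered 3, with Krt8 at 0.99 and Cldn3 at 0.87. With a pseudocount of 1 they also numbered 3. In 7 of the 10 genes the lowest BPVB library was above the highest sham library, as in 25.2% of all tested genes. The median log2 fold change of the 9 tested genes was 1.03, and that of all tested genes was 0.02. In bulk tissue, more cells that carry a transcript and more of the transcript per cell cannot be told apart.

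**Figure D1:**
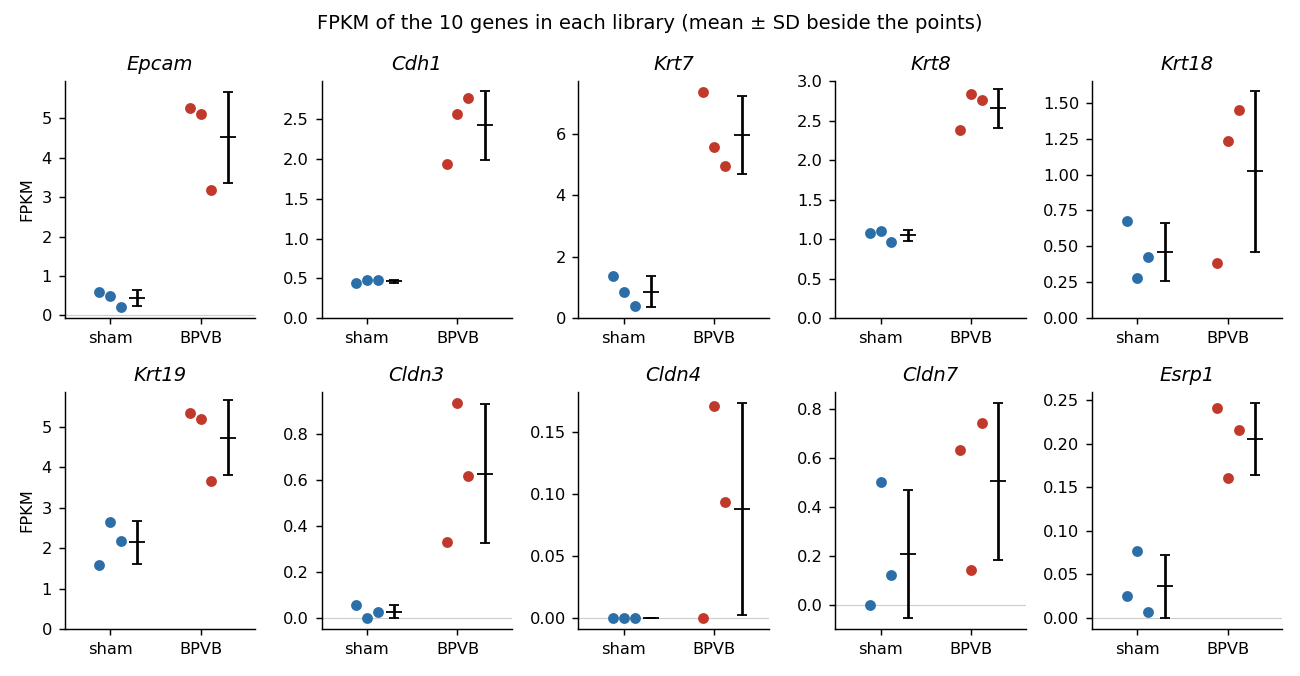
FPKM of each of the 10 genes (vertical axes, from 0, each with its own scale) in the 3 sham libraries (blue) and the 3 BPVB libraries (red), with the mean ± SD beside the points. The groups are apart for Epcam, Cdh1, Krt7, Krt8, Krt19, Cldn3 and Esrp1, and overlap for Krt18, Cldn4 and Cldn7.

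Epcam (NCBI Gene 171577), the adhesion molecule most used to mark epithelial cells, had the largest log2 fold change of the set on the log2(FPKM + 0.5) scale, and came after Cldn3 with limma-voom on the recovered fragments (3.41 against 4.05). Its level was 5.26, 5.10 and 3.18 FPKM in BPVB replicates 1 to 3, on 205, 194 and 138 fragments, and 0.605, 0.497 and 0.201 FPKM in sham replicates 1 to 3, on 21, 17 and 7 fragments. The lowest BPVB library was 5.26 times the highest sham library, and replicate 3 was the lowest in both groups. The means were 4.51 ± 1.16 FPKM (SD, n = 3) in the BPVB group and 0.434 ± 0.209 FPKM (SD, n = 3) in the sham group, a ratio of 10.4. On the log2(FPKM + 0.5) scale the rise was 2.42 (SE 0.22, 95% interval 1.92 to 2.93, limma adjusted p = 5.72e-05), rank 31 among all tested genes.

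Cdh1 (83502), E-cadherin, was the gene with the tightest sham values. It stood at 1.93, 2.56 and 2.77 FPKM in the BPVB libraries (226, 294 and 362 fragments) and at 0.440, 0.476 and 0.477 FPKM in the sham libraries (46, 49 and 50 fragments). The coefficient of variation was 4.53% among the sham libraries and 18.2% among the BPVB libraries, and the groups were far apart. Mean levels were 2.42 ± 0.44 and 0.464 ± 0.021 FPKM (SD, n = 3 each), a ratio of 5.21, with a log2 fold change of 1.59 (SE 0.14, 95% interval 1.26 to 1.91, limma adjusted p = 5.3e-05). Cdh1 was lowest in BPVB replicate 1, the library in which Epcam was highest.

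Krt7 (300242), the type II keratin typical of simple glandular and alveolar epithelium, reached the highest mean level of the set in the BPVB group. It measured 7.37, 5.58 and 4.94 FPKM in the BPVB libraries (150, 111 and 112 fragments), against 1.38, 0.839 and 0.385 FPKM in the sham libraries (25, 15 and 7 fragments). No BPVB library came near the sham range, although the sham libraries differed among themselves by a coefficient of variation of 57.3%. The means were 5.96 ± 1.26 and 0.867 ± 0.497 FPKM (SD, n = 3 each), a ratio of 6.87, and the log2 fold change was 2.29 (SE 0.26, 95% interval 1.71 to 2.87, limma adjusted p = 0.000189).

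Krt8 (25626), the other type II keratin of simple epithelia, changed less than Krt7 and varied little within groups. Its level was 2.38, 2.84 and 2.76 FPKM in the BPVB libraries (141, 164 and 182 fragments) and 1.08, 1.10 and 0.966 FPKM in the sham libraries (57, 57 and 51 fragments). The coefficients of variation were 9.13% and 6.84%, and the groups did not overlap. Mean levels were 2.66 ± 0.243 and 1.05 ± 0.0717 FPKM (SD, n = 3 each), a ratio of 2.54, with a log2 fold change of 1.03 (SE 0.12, 95% interval 0.76 to 1.29, limma adjusted p = 0.000202).

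Krt18 (294853), the usual filament partner of Krt8 and its direct neighbour in the RefSeq gene order, did not pass the test. It measured 0.383, 1.23 and 1.45 FPKM in the BPVB libraries (14, 44 and 59 fragments) and 0.676, 0.280 and 0.429 FPKM in the sham libraries (22, 9 and 14 fragments). BPVB replicate 1 lay below 2 of the 3 sham libraries, whereas the other two BPVB libraries were above all 3. The log2 fold change was 0.60 (SE 0.29, 95% interval -0.07 to 1.27, limma adjusted p = 0.155), and it was 0.95 (adjusted p = 0.01) without BPVB replicate 1. Over 15 alternatives it ran from 0.38 to 1.02, with limma adjusted p up to 0.4, and passed in only 1. RefSeq names 7 near copies of Krt18, of which 6 are pseudogenes, and 1 pseudogene of Krt8, and how the authors counted fragments that fit several places is not given in the sources used here, so the Krt18 and Krt8 values are uncertain to that extent. Among these copies 1 was in the table, as LOC683212, with at most 2 fragments in any library.

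Krt19 (360626), a type I keratin that pairs with either type II keratin, was the most abundant of the 10 genes in the sham group. It stood at 5.35, 5.2 and 3.66 FPKM in the BPVB libraries (197, 187 and 150 fragments) and at 1.58, 2.66 and 2.19 FPKM in the sham libraries (52, 86 and 72 fragments). The gap between the groups was narrow, with the lowest BPVB library at 1.38 times the highest sham library. Means of 4.73 ± 0.936 and 2.14 ± 0.538 FPKM (SD, n = 3 each) gave a ratio of 2.21 and a log2 fold change of 0.99 (SE 0.18, 95% interval 0.57 to 1.40, limma adjusted p = 0.00335).

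The claudins of the set were low. Cldn3 (65130), a sealing claudin of tight junctions, measured 0.331, 0.937 and 0.617 FPKM in the BPVB libraries (13, 36 and 27 fragments), against 0.0571, 0 and 0.0285 FPKM in the sham libraries (2, 0 and 1 fragments). It was near absent from the sham libraries and present in each BPVB library. Per counted fragment the ratio of 76 to 3 fragments was 21.8 (exact 95% interval 7.19 to 108, counting error only). The log2 fold change of Cldn3 was 1.06 (SE 0.20, 95% interval 0.59 to 1.53, limma adjusted p = 0.00426), a value that the pseudocount of 0.5 holds down.

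Cldn4 (304407), which lies next to Cldn3 in the RefSeq gene order, was listed at 0 in the 3 sham libraries and in BPVB replicate 1, and at 0.171 and 0.0935 FPKM in BPVB replicates 2 and 3, on 8 and 5 fragments. It was under the filter and was not tested. Its BPVB mean of 0.088 FPKM stood close to the 0.0704 FPKM that 3 fragments would give in a sham library, and rested mostly on BPVB replicate 2, so no fold is given. Cldn7 (65132), the claudin that binds Epcam, measured 0.634, 0.141 and 0.742 FPKM in the BPVB libraries (23, 5 and 30 fragments) and 0, 0.502 and 0.123 FPKM in the sham libraries (0, 16 and 4 fragments). Its groups overlapped, with sham replicate 2 above BPVB replicate 2, and the log2 fold change was 0.51 (SE 0.31, 95% interval -0.20 to 1.22, limma adjusted p = 0.252).

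Esrp1 (500409), the epithelial splicing regulator, was near the filter on low values. It measured 0.241, 0.160 and 0.216 FPKM in the BPVB libraries (43, 28 and 43 fragments) and 0.0251, 0.0765 and 0.00627 FPKM in the sham libraries (4, 12 and 1 fragments). The groups did not overlap, with the lowest BPVB library at 2.10 times the highest sham library. The log2 fold change of Esrp1 was 0.40 (SE 0.14, 95% interval 0.07 to 0.73, limma adjusted p = 0.066), which missed the threshold. It passed with no filter on low values (adjusted p = 0.011) and with limma-voom on the recovered fragments (log2 fold change 2.90, adjusted p = 0.0046).

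The order of the levels differed between the groups, although most neighbours in it were not apart. In the BPVB group the order of the mean FPKM was Krt7, Krt19, Epcam, Krt8, Cdh1, Krt18, Cldn3, Cldn7, Esrp1 and Cldn4, and only Epcam and Krt8, and Cdh1 and Krt18, were neighbours with ranges that did not overlap. In the sham group it was Krt19, Krt8, Krt7, Cdh1, Krt18, Epcam, Cldn7, Esrp1, Cldn3 and Cldn4, and only Krt19 and Krt8 were apart. Epcam therefore stood at position 3 in the BPVB group and at position 6 in the sham group. Ordered by fold change on the log2(FPKM + 0.5) scale, the tested genes ran Epcam, Krt7, Cdh1, Cldn3, Krt8, Krt19, Krt18, Cldn7 and Esrp1. Among neighbours in that order, only Cdh1 and Cldn3 had within-library differences that did not overlap between the groups (0.53 on the log2 scale). The pseudocount moves low genes down this order, and with limma-voom it began with Cldn3 (4.05), Epcam (3.41), Esrp1 (2.90) and Krt7 (2.88).

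Within the BPVB group the genes did not follow a common library. BPVB replicate 1 was the highest of its group for 4 of the 9 tested genes (Epcam, Krt7, Krt19 and Esrp1) and the lowest for 4 others (Cdh1, Krt8, Krt18 and Cldn3). The mean of the 9 genes, each centred on its own mean over the 6 libraries, was 0.55, 0.65 and 0.62 in the BPVB libraries, against -0.56, -0.52 and -0.74 in the sham libraries. Averaged over the set, the libraries of a group were close to each other and the groups were more than 1 apart on the log2 scale.

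Ratios of FPKM values within a library, which do not depend on the scaling of the libraries, were used to ask whether the genes moved by unequal amounts. Of 14 planned ratios, 3 (Cldn3 to Cldn4, Cldn4 to Cldn7 and Epcam to Foxj1) involved a 0 and were not computed. With 3 libraries against 3 an exact two-sided permutation test cannot go below p = 0.1, so no ratio could pass. Krt7 was 3.09, 1.97 and 1.79 times Krt8 in the BPVB libraries, against 1.27, 0.764 and 0.399 times Krt8 in the sham libraries, a 3.04-fold difference in the mean without overlap (exact permutation p = 0.1, adjusted p = 0.28 over 11 ratios). Krt7 and Krt8 together were 1.70, 1.31 and 1.51 times the sum of the type I keratins Krt18 and Krt19 in the BPVB libraries. In the sham libraries they were 1.09, 0.659 and 0.516 times that sum, again without overlap (2.09-fold, exact permutation p = 0.1, adjusted p = 0.28).

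The ratio of Krt8 to its partner Krt18 was 6.22, 2.30 and 1.91 in the BPVB libraries, against 1.6, 3.91 and 2.25 in the sham libraries, with overlap (exact permutation p = 0.6). That of Krt19 to Krt18 overlapped as well (p = 0.9 in the exact permutation test), and both log2 differences turned negative without BPVB replicate 1, the second also without sham replicate 1. Cdh1 relative to Epcam was 0.366, 0.503 and 0.871 in the BPVB libraries, against 0.728, 0.957 and 2.37 in the sham libraries, which overlapped too (log2 difference -1.12, exact permutation p = 0.2). For Esrp1 relative to Epcam the log2 difference was -0.34 (exact permutation p = 0.9), and it was 0.36 without sham replicate 2. With a pseudocount of 1 or 0.1 it was -1.71 or -1.97 (exact permutation p = 0.1 for both).

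**Figure D2:**
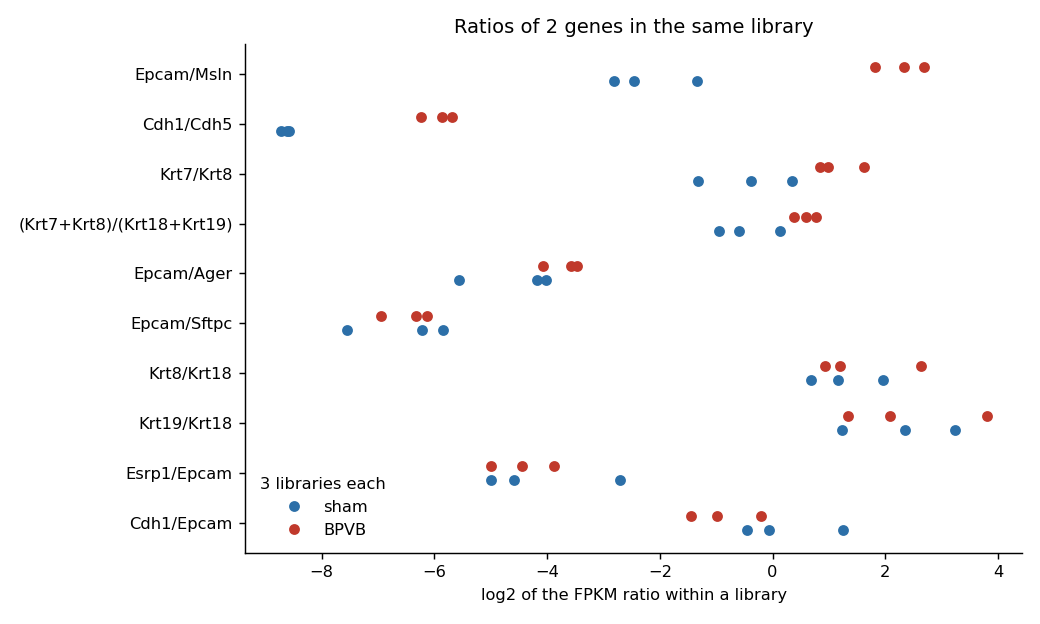
Log2 of the ratio of 2 FPKM values in the same library (horizontal axis) for 10 ratios, with 3 sham libraries (blue) and 3 BPVB libraries (red) each. The groups are apart for Epcam/Msln, Cdh1/Cdh5, Krt7/Krt8 and (Krt7+Krt8)/(Krt18+Krt19), and overlap for the other 6 shown.

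Cdh1 is the classic target of repressors that bind E-boxes, short DNA words that include CACCTG, in the promoters of epithelial genes. RefSeq promoters (assembly GRCr8, from 250 bases before to 50 after the start) were at hand for 5 of the 10 genes, Epcam, Krt8, Krt18, Cldn3 and Cldn7. CACCTG, or its reverse complement CAGGTG on the given strand, was found in 4 of these 5 and in 18.8% of all 33469 promoters. Epcam, Krt8 and Cldn3 held 1 match each, Cldn7 held 5, of which 4 lay wholly before the start, and Krt18 held 0. The windows below show, in capitals, the match of Epcam (165 bases before the start, chr6:12649818-12649863, minus strand), of Krt8 (214 before, chr7:135010528-135010573, minus strand), of Cldn3 (248 before, at the edge of the promoter, chr12:27346770-27346797, minus strand) and the match of Cldn7 at 28 before the start (chr10:55188622-55188667, plus strand).
Epcam: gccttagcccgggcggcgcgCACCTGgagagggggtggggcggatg
Krt8: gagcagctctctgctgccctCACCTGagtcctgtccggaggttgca
Cldn3: ccCACCTGggtcctcccaatccgggtcc
Cldn7: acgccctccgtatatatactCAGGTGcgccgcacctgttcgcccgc
The grainyhead-like word AACNGGTT (both strands) was in 0 of the 5 promoters and in 2.1% of all promoters. The GC box GGGCGG (both strands) was found 4 times in Epcam, once each in Krt18, Cldn3 and Cldn7, and not in Krt8, beside 33.1% of all promoters. Such a match describes the letters in the window and not a bound site, and no binding was measured in these veins.

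The repressors that bind such E-boxes were read from a list of 6 genes. Of these, 2 were higher in the BPVB group (Snai1 and Zeb2), 1 was lower (Zeb1) and 3 did not pass. Snai1, the Snail factor, stood at 9.19, 10.5 and 13.0 FPKM in the BPVB libraries and at 6.89, 6.16 and 6.14 FPKM in the sham libraries (log2 fold change 0.71, SE 0.12, limma adjusted p = 0.00187). Zeb2 rose by 0.30 (SE 0.04, limma adjusted p = 0.000816) and Zeb1 fell by 0.18 (SE 0.05, limma adjusted p = 0.0167), a call that was lost without BPVB replicate 3 or without sham replicate 1. Twist2 had a log2 fold change of 0.28 (limma adjusted p = 0.229). Snai1 and Zeb2 were each higher in all 3 BPVB libraries than in any sham library, as were 25.2% of all tested genes. Zeb1 was lower in all 3 BPVB libraries than in any sham library, and the other repressors of the list overlapped between the groups.

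Among the catenins that anchor cadherins and the other cadherins, 3 of 9 genes were higher, 3 were lower and the median log2 fold change was -0.04. Cdh5, the cadherin of endothelium, fell by 0.34 (SE 0.03, limma adjusted p = 3.34e-05) from a mean of 185 to 146 FPKM. The Cdh1 to Cdh5 ratio, in which Cdh1 rose 5.21-fold by its means, was 6.53-fold higher in the BPVB group without overlap (log2 difference 2.71, or 1.56 with a pseudocount of 1, exact permutation p = 0.1, adjusted p = 0.28). Even so, Cdh1 was at most 0.0193 times Cdh5 in any library. Cdh2, the N-cadherin of muscle and mesenchyme, rose by 0.46 (SE 0.06, limma adjusted p = 0.0003), and Cdh11, a cadherin of fibroblasts, rose by 0.66 (SE 0.08, limma adjusted p = 0.000347). Cdh3, which lies next to Cdh1 in the gene order, fell by 0.40 (SE 0.10, limma adjusted p = 0.0139) while Cdh1 rose.

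The other epithelial genes were read from 4 lists. In the list of junction and polarity genes, 11 of 22 tested genes were higher, 4 were lower (2 without BPVB replicate 1) and the median log2 fold change was 0.37. Among genes with a mean of at least 1 FPKM, 5 were higher and 4 lower. Spint1, an inhibitor of membrane proteases, rose by 0.91 and St14, the protease matriptase that it inhibits, by 0.73 (limma adjusted p = 0.00515 and 0.00259). F11r, a junction molecule that endothelium shares and the most abundant gene of the list, stood at 60.1 and 63.6 FPKM in the BPVB and sham groups (limma adjusted p = 0.106).

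In the list of other claudins, 4 of 11 tested genes were higher and 1 was lower, Cldn12, a call lost without BPVB replicate 1, BPVB replicate 2, sham replicate 1 or sham replicate 3. Cldn18, the claudin of alveolar epithelium, was 14.9, 13.6 and 14.6 FPKM in the BPVB libraries and 1.33, 1.70 and 1.06 FPKM in the sham libraries. It exceeded Cldn3, Cldn4 and Cldn7 together in each library, and its log2 fold change was 3.01 (SE 0.13, limma adjusted p = 5.69e-07). Cldn1 rose by 1.43 (SE 0.16, limma adjusted p = 0.000168) and Cldn19 by 0.96 (SE 0.16, limma adjusted p = 0.00202). Cldn5, the endothelial claudin, was at 102 and 101 FPKM (limma adjusted p = 0.741).

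In the list of other keratins, 9 of 15 genes were in the table and 4 were tested. Krt79 and Krt80 were higher, by 0.87 and 0.46 on the log2 scale (limma adjusted p = 0.0172 and 0.0408), and neither call held without BPVB replicate 1 or without BPVB replicate 2, and the list held 1 higher gene without each sham library in turn, with no filter on low values, with a mean of at least 1 FPKM, with quantile normalization and with limma-voom. Krt4, a keratin of stratified lining epithelium, stood at 0.0282 and 0.219 FPKM in the BPVB and sham groups (log2 fold change -0.43, limma adjusted p = 0.0942), and the list held 1 lower gene with limma-voom and without sham replicate 3. Krt10, a keratin of stratified epithelium, was at 1.85 and 1.89 FPKM (limma adjusted p = 0.909). Krt5 and Krt14, the keratins of basal cells, were listed at 0 in the 3 BPVB libraries and averaged 0.034 and 0.0096 FPKM in the sham group.

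In the list of epithelial regulators, 4 of 9 tested genes were higher, 0 were lower and the median log2 fold change was 0.45. Only 1 was called higher when genes were required to average 1 FPKM or more. Klf5, a transcription factor of epithelial growth, rose from 0.340 to 2.30 FPKM (log2 fold change 1.74, SE 0.13, limma adjusted p = 1.58e-05). Nkx2-1, the factor that defines lung and thyroid epithelium, rose from 0.284 to 1.65 FPKM (log2 fold change 1.46, SE 0.22, limma adjusted p = 0.0011).

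Most alveolar markers were called higher in the BPVB group, where 17.2% of all tested genes were. Each of the 9 alveolar type 2 genes was higher in the BPVB group, 7 of them as DEGs. Sftpc, the surfactant protein C gene, was 367, 409 and 393 FPKM against 35.0, 37.2 and 37.6 FPKM (log2 fold change 3.40, SE 0.05, limma adjusted p = 8.65e-10), and Slc34a2 and Sftpb rose by 3.39 and 3.31. Of the 8 alveolar type 1 genes, 7 were higher and 1 (Hopx, which cardiac muscle also uses) was lower, with sums of 214 to 224 and 138 to 142 FPKM. Ager rose by 2.54, Aqp5 by 2.52 and Pdpn by 2.04 (limma adjusted p of 2.31e-06 or less for the 3).

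Airway markers did not move as a list, with 1 of 7 tested genes higher, 1 lower (2 without BPVB replicate 3) and sums of 106 to 120 and 137 to 144 FPKM. The club cell gene Scgb1a1, which rose by 2.52 (limma adjusted p = 1.61e-06), was the higher one, and Tppp3, which other cells share, made up most of the sum and was the lower one (fell by 0.67). Scgb3a1, Scgb3a2 and Foxj1, the factor of ciliated cells, were listed at 0 in all BPVB libraries and in all but 1 sham library each, where they stood at 0.254, 0.114 and 0.0365 FPKM. Mesothelial markers went the other way, with 4 of 5 tested genes lower and 0 higher, and sums of 4.36 to 4.94 and 7.56 to 9.49 FPKM. Msln fell by 0.73, Upk1b by 0.50 and Gpm6a by 0.57 (limma adjusted p of 0.0244 or less for the 3).

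Epcam relative to Sftpc overlapped between the groups, at 0.0143, 0.0124 and 0.00808 in the BPVB libraries, against 0.0173, 0.0134 and 0.00535 in the sham libraries (exact permutation p = 0.9). Epcam to Ager overlapped too (log2 difference 0.88, exact permutation p = 0.2). Epcam to Msln was 5.05, 6.48 and 3.51 in the BPVB libraries, against 0.394, 0.181 and 0.142 in the sham libraries, a 22.5-fold difference in the mean without overlap (log2 difference 4.49, or 2.50 with a pseudocount of 1, exact permutation p = 0.1, adjusted p = 0.28). Krt18 to Msln overlapped (exact permutation p = 0.2). The log2 difference of Epcam to Sftpc turned to -1.45 with a pseudocount of 1 and -0.24 with one of 0.1, and that of Epcam to Ager to -0.56 with a pseudocount of 1.

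Cells of the vein wall were read in the same way. In the BPVB group 0 of 8 endothelial genes were higher and 5 were lower, 2 of 7 smooth muscle genes were higher and 4 lower (2 with quantile normalization), and 2 of 8 cardiac muscle genes were higher and 6 lower, with median log2 fold changes of -0.15, -0.06 and -0.34. Among all tested genes 17.2% were higher and 14.3% lower. Of 8 leukocyte genes, 4 were higher, 1 was lower and 3 did not pass, with sums of 37.5 to 42.1 and 29.5 to 35.4 FPKM. The part of lung parenchyma, of pleura or of the other cell types in the rise of Epcam, Cdh1, Krt7, Krt8, Krt19 and Cldn3 was not tested, and alveolar tissue left on a dissected vein and epithelial transcripts within the vein wall cannot be told apart here. In its separate single-cell data from pulmonary veins of this model, the paper set epithelial cells aside as likely to come from lung parenchyma.

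**Figure D3:**
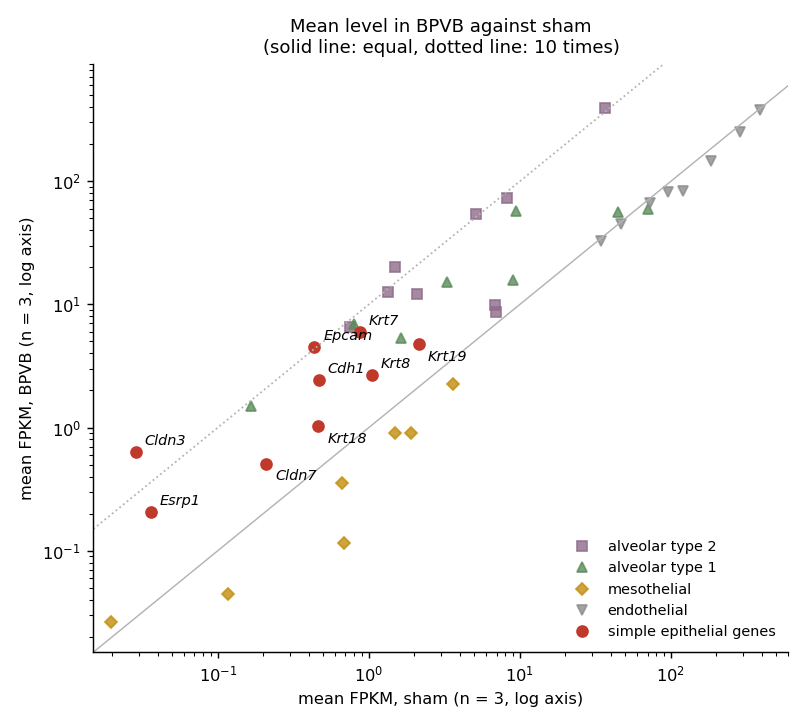
Mean FPKM in the BPVB group (vertical, log axis) against the sham group (horizontal, log axis), n = 3 each, for 9 of the 10 genes (red, named) and for alveolar type 2, alveolar type 1, mesothelial and endothelial markers. Cldn4, at 0 in the sham group, is not drawn. Epcam (4.51 against 0.434) lies on the dotted 10-times line near most alveolar type 2 genes, Krt19 and Krt18 lie nearer the solid line of equal levels, and most mesothelial and endothelial genes lie below that line.

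**Figure D4:**
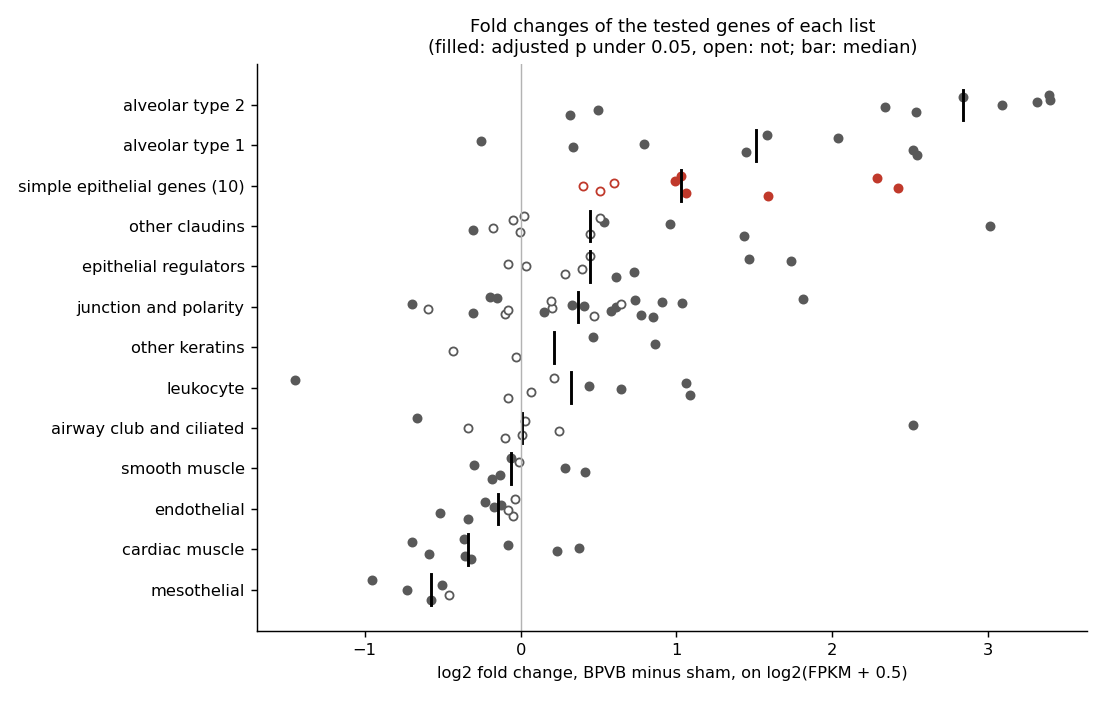
Log2 fold change, BPVB minus sham, on log2(FPKM + 0.5) (horizontal axis) of each tested gene in the 10-gene set (red) and in 12 other lists (grey), with filled points for an adjusted p under 0.05 and a bar at each list's median. The median is 1.03 for the 10-gene set, 2.84 for alveolar type 2, 1.51 for alveolar type 1 and -0.57 for mesothelial genes.

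The GO terms deposited with the table were read for what the 10 genes share. Of them, 5 (Krt8, Krt19, Cldn3, Cldn4 and Cldn7) carry the term apicolateral plasma membrane, which 25 of the listed genes carry. Epcam, Cldn3, Cldn4 and Cldn7, 4 in all, carry bicellular tight junction, with 105 listed genes, and Krt7, Krt8 and Krt18 carry keratin filament, with 29. The genes of the first term included Krt8, Krt19 and Cldn3, which rose, and Cldn7, which did not pass.

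The genes outside the set whose log2(FPKM + 0.5) ran most like the mean of the 9 tested genes over the 6 libraries were Cdca8, Azin1, Hipk2, Hbegf and Pigr, with Pearson r of 0.9999, 0.9986, 0.9986, 0.9985 and 0.9985 among 12152 genes compared. The 6 points fall into the BPVB and sham groups, so these values describe the difference between the groups rather than a relation within them. Pigr, the receptor that carries antibodies across epithelium, went from 0.654 to 5.22 FPKM (log2 fold change 2.32), and Hbegf, a ligand of the EGF receptor, from 6.59 to 11.9 FPKM (0.81).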

How the data were processed

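Sequencing and its analysis were run by a company for the authors, whose methods name fastp, HISAT and HTSeq-count, whereas the submitters' processing notes name HISAT2 2.0.5, StringTie 1.3.3b, featureCounts 1.5.0-p3 and DESeq2 1.20.0. The genome build, annotation and strand setting are not given in the sources used here. The deposited table gives the authors' FPKM of 17833 genes in 6 libraries, beside NCBI Gene numbers and GO terms. Condition and replicate number came from the sample titles, and the columns were matched to the titles by initial and number.

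Because the deposited values are FPKM and not counts, DESeq2 was not run. The 15150 genes whose FPKM averaged 0.1 or more were tested with limma 3.58.1 in R 4.3.3 (lmFit, eBayes with trend) on log2(FPKM + 0.5), which understates the fold change of low genes. Fold changes are on that scale. A DEG is a gene past 0.05 in adjusted p and past 1 in log2 fold change, in either direction. Each FPKM is a whole multiple of what 1 fragment is worth, which gave whole fragment numbers (within 1e-06, the smallest that the values allow) for 100.0% of genes. Intervals and floors on fragments cover counting error only. Ratios were tested by exact permutation in Python 3.11.15 with scipy 1.17.1. The scripts were tested on simulated data.

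The 10 genes and all lists were chosen with earlier results of these data known. From each list at most 4 genes are named, the 3 with the largest absolute log2 fold change among those with a mean of at least 0.5 FPKM and the 1 with the highest mean. Some genes that this rule picks are not reported here. Cldn12, Zeb1, Hopx, Krt4, Krt5, Krt14, Scgb3a1, Scgb3a2 and Foxj1 were named after their values were seen. Promoters are RefSeq sequences (GRCr8). Alternatives were pseudocounts of 1 and 0.1, no filter or a mean of at least 1 FPKM, median-of-ratios, TPM and quantile scaling, robust eBayes, the replicate number as a block, limma-voom on fragments (at least 10 per gene) and leaving out each library.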

Additional observations from a re-analysis of the deposited data

How the results depend on the processing

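Under 16 alternatives between 5 and 7 of the genes were called higher, beside 14.1% to 19.8% of all tested genes, and 0 lower. The DEGs among them numbered 3 with a pseudocount of 1 and between 3 and 6 when 1 library was left out, the 3 being without BPVB replicate 2. The direction turned for 5 of the 11 ratios. With 1 library left out, the log2 difference ran from -0.21 to 0.67 for Krt8/Krt18, from -0.57 to 0.66 for Krt19/Krt18, from -0.80 to 0.36 for Esrp1/Epcam and from -0.43 to 0.42 for Epcam/Sftpc. It was -1.45 for Epcam/Sftpc with a pseudocount of 1, -0.24 with one of 0.1, and -0.56 for Epcam/Ager with a pseudocount of 1. The cause was not tested. Of 139 log2 fold changes of the 9 tested genes under the alternatives, 136 kept their direction and side of the threshold and 3 newly passed it (Krt18 once, Esrp1 2 times). DEGs higher among all genes numbered 340, against 227 with a pseudocount of 1, 611 with one of 0.1 and 721 with limma-voom. Deviations from the group mean correlated at 0.025, 0.014 and 0.015 between same-numbered libraries, which cannot show whether those rats were paired in the experiment. With the replicate block 6 of the genes were higher and 5 were DEGs, while genes called higher in all numbered 2466 against 2605. Cldn3, Cldn4, Cldn7 and Esrp1 had fewer than 20 fragments in each sham library, and Epcam, Krt7 and Krt18 in 2 of the 3, so that depth limits the precision of their sham levels.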
